A study of Mus musculus with 2 samples.

Results

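The genes described here mark the hyaloid vessels and the macrophages that accompany them. They are a set of 40 genes chosen by name as a view of the vascular capsule around the newborn lens, out of 20655 genes named on the array. Of these, 16 mark endothelium, 2 encode angiopoietins, 3 mark pericytes and 19 mark macrophages. Probes were matched for 39 of the 40 genes, and 33 were well above background on both arrays. Another 2 (Angpt1 and Lyz2) were above background on the control array only and 1 (Mrc1) on the knockout array only. Flt4, Erg and Cd14 were above background on neither array, and no probe was matched to Cd68.

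The lens itself has no blood vessels. Before birth it is wrapped by a transient net, the tunica vasculosa lentis, which is fed by the hyaloid artery through the vitreous and regresses around and after birth in the mouse. Its capillaries are endothelial tubes covered by pericytes, and resident macrophages take part in their removal through Wnt signals to the endothelium, with angiopoietin 2 tuning the Tie2 receptor on the same cells.

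The study asked how loss of Foxp1, a forkhead transcription factor, changes gene expression in the lens. It compared 1 array of lens RNA from control litter mates, labelled wild-type, with 1 array from lens whose label gives a knockout of Foxp1 specific to the lens, both at postnatal day 0 and on a mixed C57BL/6 background. The treatment text of both samples names Foxp1-flox/flox and Pax6-L-Cre, a Cre driver active in the lens lineage, so whether the control animals carried any of these alleles is not settled by the labels. The vessel and macrophage cells are not lens cells, and how far the driver reaches them is not stated. Pooling of animals is not stated either.

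Each array gave 1 brightness value per spot for 59305 gene spots, of which 67.5% in control and 56.9% in knockout lens were well above background. Foxp1 itself, with 3 probes, read lower in the knockout by each of them, from 3460.2 to 969.9 with the first, and its mean difference was -1.67 on the log2 scale. All 12 lens markers looked up were above background in both samples, and their median difference was -0.02 on the log2 scale. Differences are given as knockout minus control of the log2 processed signal, after the 75th percentile of each array was subtracted. With 1 array per genotype there is no test and no replicate check. A difference is called higher or lower where it reached 2-fold (1 on the log2 scale), and every value describes these 2 arrays. In whole lenses, fewer cells of a type and less RNA per cell cannot be told apart.

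Dim probes read lower on the knockout array in general, and most of the vessel and macrophage genes are dim. Of the 14254 genes measured on both arrays, 5.86% were lower by at least 2-fold and 1.02% higher. The lower share was 11.3% among genes below the median signal of 350.0 and 0.393% among the brighter ones, and the higher share was 1.21% and 0.842%. Spike-in RNA, which such arrays carry as a constant, also read lower at low signal. Dim spike-ins read 19.2, 54.1 and 81.4 in control and 3.88, 6.1 and 37.2 in knockout, and a bright one 9763 and 9532. The size of the shift was not the same as for genes. Spike-ins at 284 and 566 in control differed by -0.11 and -0.19, where the median of genes of like signal was 0.04. Differences are therefore also given after a loess correction, for measured genes and some genes above background on the control array only. The correction subtracts a trend of the difference along the signal. That trend was fitted over all gene spots without an outlier mark, also those below background. It is therefore not the trend of the measured genes alone, and dim genes may be moved too far. After it, 405 measured genes were higher and 290 lower by at least 2-fold. Spot noise was taken from 280 probes printed at least 5 times, whose spot differences had an SD of 0.24 on the log2 scale in the dimmest of 5 signal classes and 0.08 in the brightest. It covers neither animals nor dissections.

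Of the 33 measured genes, 0 were higher and 3 were lower by at least 2-fold (9.09%, against 5.86% of all measured genes), and 30 lay between. The 3 lower genes were Emcn, Fcgr3 and Ptprc. Each was in the dimmest of the 5 signal classes (17.1 to 72.8), in which 23.9% of all genes were lower. None of the 3 reached 2-fold after the loess correction. The median difference of the 33 genes was -0.14 on the log2 scale, beside 0.01 for all measured genes. After loess it was -0.01, beside 0.05 for all measured genes. The 6 genes of the set that reached the median signal had a median of 0.13, and the 27 dimmer ones a median of -0.15, beside 0.08 and -0.17 for all bright and all dim genes. These medians lie close to those of other genes of like signal. Summed over their probes, the 39 genes read 21095 in control and 20471 in knockout lens.

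**Figure D1:**
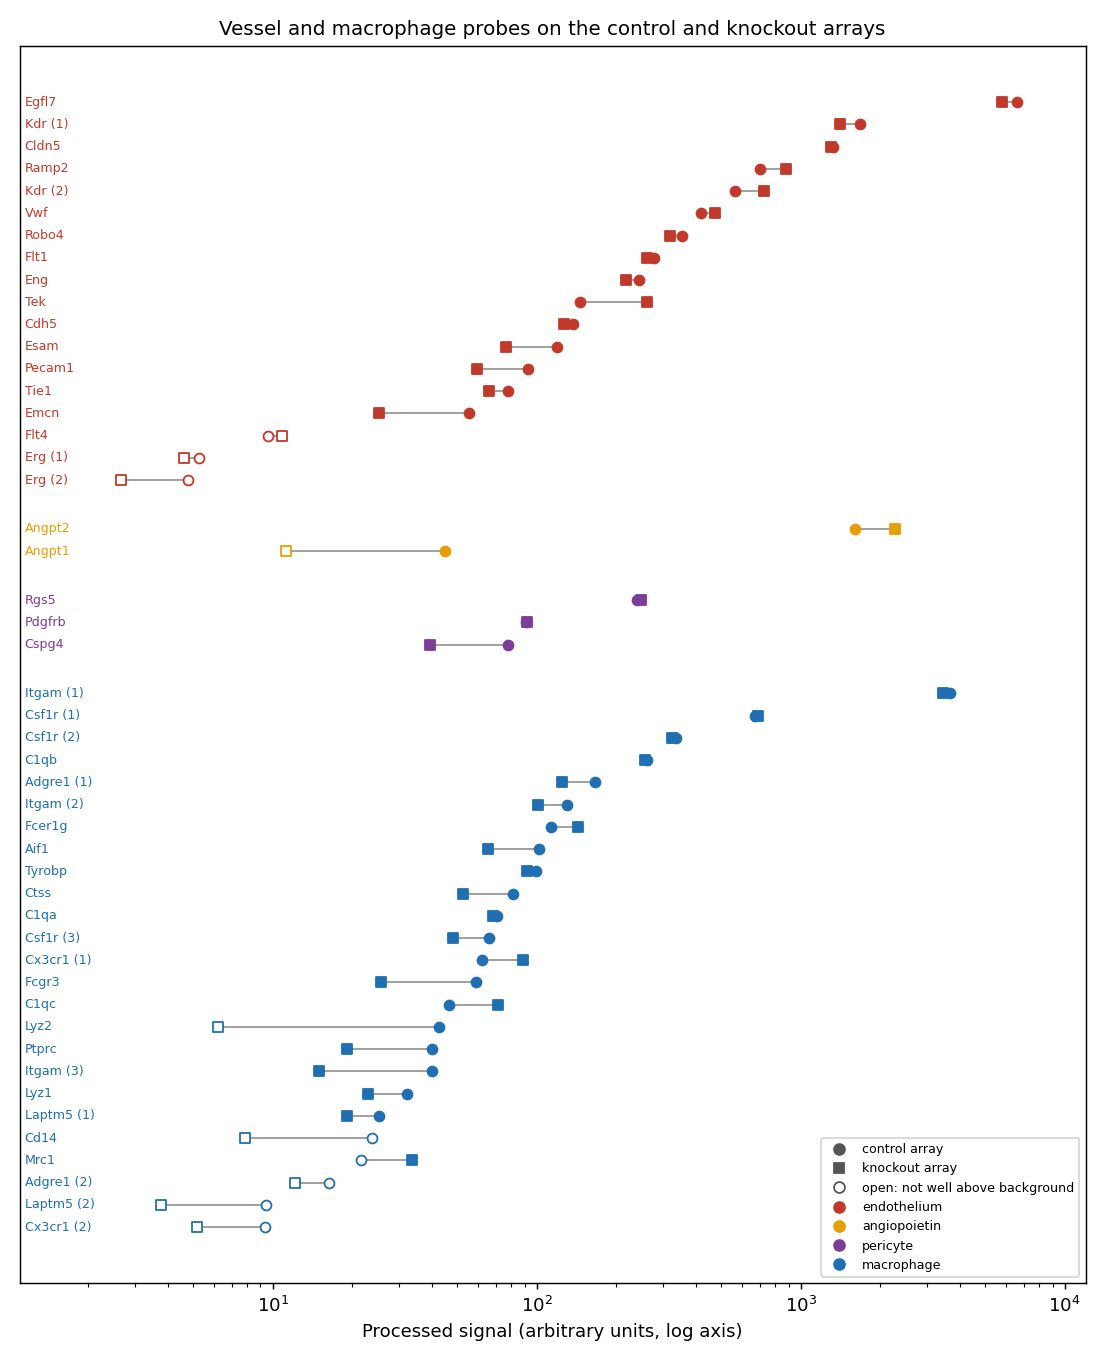
Processed signal (log axis, arbitrary units) of each of the 48 probes of the vessel and macrophage genes on the control array (circles) and the knockout array (squares), coloured by list, with open symbols where a probe was not well above background. Most pairs of symbols lie close together, and the wide gaps are at low signal, as for Lyz2 (42.8 and 6.21) and Angpt1 (45.1 and 11.2).

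**Figure D2:**
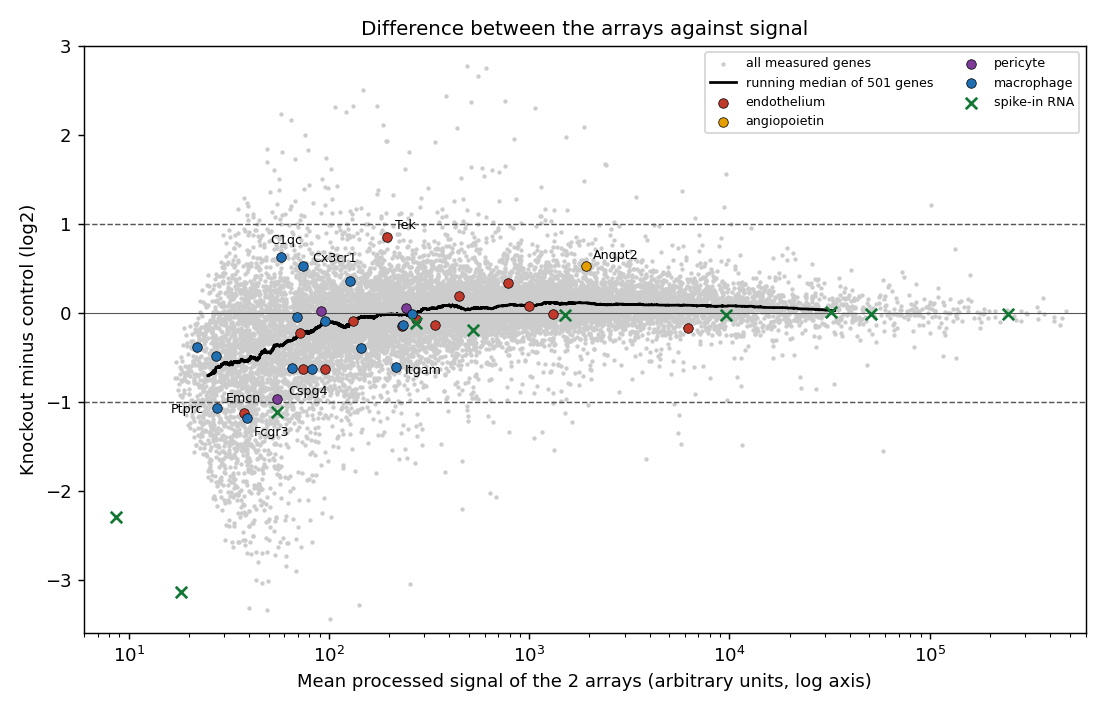
Knockout minus control difference (log2) against the mean processed signal of the 2 arrays (log axis) for all 14254 measured genes in grey, with their running median as a line, the 33 measured vessel and macrophage genes in colour, spike-in RNA as crosses and dashed lines at 2-fold. The running median and the spike-ins bend down at low signal, where Emcn, Fcgr3 and Ptprc lie, while Tek, C1qc, Cx3cr1 and Angpt2 lie above the line.

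Promoter sequence was read for the genes that stand apart or form a pair. RefSeq windows on GRCm38.p6 were found for 27 of the 40 genes, in 33 windows, and none was found for the angiopoietins or C1qa. The 150 bases before the annotated start are printed 5′ to 3′ on the gene's strand. Tek (chr4:94739139-94739288, plus strand) and Emcn (chr3:137340928-137341077, plus strand) are the endothelial genes with the highest and the lowest difference. C1qb (chr4:136886201-136886350, minus strand) and C1qc (chr4:136892915-136893064, minus strand) are adjacent genes whose products join in 1 complement molecule. Capitals mark AGGAAG or its reverse complement CTTCCT, letters bound by ETS factors, a family that includes Erg and the macrophage factor PU.1.
Tek: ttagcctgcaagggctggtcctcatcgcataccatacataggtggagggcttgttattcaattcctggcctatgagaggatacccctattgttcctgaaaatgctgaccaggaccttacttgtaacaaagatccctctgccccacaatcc
Emcn: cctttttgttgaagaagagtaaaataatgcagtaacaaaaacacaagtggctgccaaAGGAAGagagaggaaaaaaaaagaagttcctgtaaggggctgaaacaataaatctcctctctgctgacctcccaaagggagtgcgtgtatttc
C1qb: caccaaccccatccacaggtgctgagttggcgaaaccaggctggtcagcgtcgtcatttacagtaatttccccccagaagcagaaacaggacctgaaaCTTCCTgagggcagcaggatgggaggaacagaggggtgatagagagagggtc
C1qc: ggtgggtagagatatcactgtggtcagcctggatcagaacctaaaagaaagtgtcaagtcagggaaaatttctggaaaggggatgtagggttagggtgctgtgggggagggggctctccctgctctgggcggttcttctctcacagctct

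Emcn and C1qb hold the motif in these bases, and Tek and C1qc do not. Over the 250 bases before the start, 20 of the 33 windows of the set held it on either strand (60.6%), beside 29.5% of all 32851 windows in the table. The share was 53.3% of the 15 endothelial windows and 75% of the 16 macrophage windows, and 0 of the 2 pericyte windows held it. The forkhead letters TGTTTAC or GTAAACA, which resemble sites of the Foxp family, were in 0 of the 33 windows and in 3.17% of all windows. Genes with the AGGAAG letters lay on both sides of 0 on the arrays. Emcn and Fcgr3, both lower, hold it, and so do C1qc and Fcer1g, both above 0.

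Endothelial genes, as a group, read almost alike on the 2 arrays. Of the 16 genes 14 were measured. Of these, 0 were higher and 1 was lower (7.14%, against 5.86% of all measured genes). The median difference was -0.12 on the log2 scale (-0.08 after loess). While 4 lay above 0, 10 lay below: 8 of the 9 dimmer and 2 of the 5 brighter genes. Among all genes, 66.0% of the dim and 32.2% of the bright ones lay below 0. The 5 brighter genes had a median of 0.07. Summed over the list, the signal was 12819 in control and 12019 in knockout lens. Pecam1, Cdh5, Cldn5 and Kdr were among the 14 of 16 genes above background on both arrays, and Flt4 and Erg were above it on neither. RNA of most listed endothelial genes was thus present in both samples.

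The receptors for VEGF, the main growth signal of endothelium, differed little. Kdr, the principal signalling receptor, has a probe printed in 10 spots. Those spots read 510 to 611 in control and 679.6 to 803 in knockout lens, a difference of 0.39 on the log2 scale with a spot SD of 0.12. The spot ranges of this probe do not overlap, and all of its knockout spots are the higher ones. The other Kdr probe went the opposite way, from 1684 on the control array to 1411 on the knockout array (-0.24), so the mean over both was 0.07 (-0.01 after loess) with an SD of 0.44 over probes. The 2 probes thus leave Kdr without a direction. Flt1, a receptor that mostly holds VEGF back, read 279 in control and 263 in knockout lens (-0.07, and -0.06 after loess). Flt4, the receptor of lymphatic and sprouting endothelium, was not above background on either array, at 9.57 and 10.9.

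**Figure D3:**
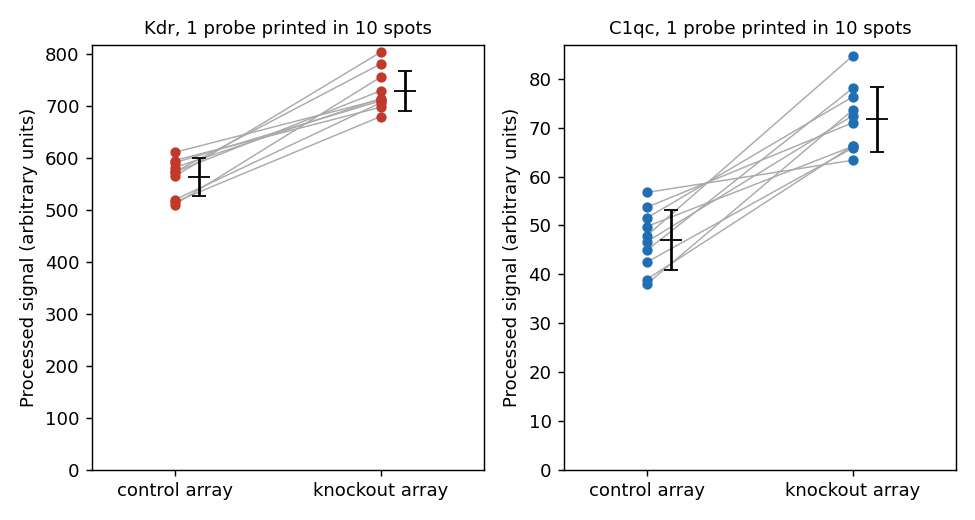
Processed signal (arbitrary units, axis from 0) of the 10 spots of 1 probe each of Kdr and C1qc on the control and knockout arrays, with a line joining spots at the same position and bars giving the mean and SD over spots. The spots ranged from 510 to 611 in control and 679.6 to 803 in knockout for Kdr, and from 37.9 to 56.7 and 63.3 to 84.7 for C1qc. They show printing and scanning noise within 1 pair of RNA samples.

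Of the pair of angiopoietin receptors, Tek was the one that stood out. Tek, also called Tie2, read 146 in control and 262 in knockout lens, which is 1.81-fold higher (0.86 on the log2 scale, 0.92 after loess, spot SD 0.16). It has the largest difference above 0 of the 33 genes under this scaling, and it stayed below 2-fold. Relative to the median of all genes it lay above 0 under each of the 9 settings of the processing that measured it. Tie1, the partner receptor with no well-established ligand of its own, read 77.9 in control and 66.2 in knockout lens (-0.22, and 0.12 after loess). Tie1 has no settled direction.

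The ligands of Tek differed from each other in what could be measured. Angpt2, released by endothelium and an antagonist of Tek in many settings, read 1606 in control and 2287 in knockout lens, 1.44-fold higher (0.52 on the log2 scale, 0.43 after loess, spot SD 0.08). Angpt2 lies in a signal class where the median of all genes was 0.09, and 30.8% of genes lay below 0. Its difference lay above the median of all genes under each of the 10 settings. Angpt1, the agonist made by mural and mesenchymal cells, read 45.1 in control and 11.2 in knockout lens, where it was not well above background. It was at least 3.68-fold lower by the bound, which sets the control value against the least signal that the knockout array called above background. Its difference after loess was -0.80, smaller in size than that bound (1.88 on the log2 scale). Of the 1809 genes above background on the control array only, 92.8% had a bound of at least 2-fold, so such a bound was usual for a gene seen on that array alone.

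Emcn, a sialomucin of capillary and venous endothelium, read 55.6 in control and 25.3 in knockout lens, 2.17-fold lower (-1.12 on the log2 scale). After loess its difference was -0.38, with a spot SD of 0.24. Emcn is the only endothelial gene past 2-fold, and it was within 2-fold with loess, with quantile normalization (-0.12) and with normexp (-0.45).

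Pecam1, an adhesion molecule at the contacts between endothelial cells, read 81.8 and 106 in its 2 control spots and 52.1 and 68.1 in its 2 knockout spots (-0.63, and -0.30 after loess). Esam, another adhesion molecule of the same contacts, read 119 in control and 76.6 in knockout lens (-0.63, and -0.39 after loess). Cdh5, the cadherin of those contacts, read 137 in control and 127 in knockout lens (-0.09, and 0.05 after loess). Cldn5, the claudin that seals tight junctions of barrier endothelium, read 1330.0 and 1304 (-0.01, and -0.10 after loess). The junction genes therefore split, with Pecam1 and Esam below 0 with and without loess and Cdh5 and Cldn5 within 1 spot SD of 0 (0.16 and 0.12).

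The remaining measured endothelial genes differed by at most 1.26-fold. Ramp2, the partner of the adrenomedullin receptor, read 703 in control and 877 in knockout lens, 1.26-fold higher (0.33, and 0.26 after loess). Vwf, the clotting factor stored in endothelium, read 419.5 and 473 (0.19, and 0.15 after loess). Ramp2 and Vwf lay above the median of all genes under each of the 10 settings, and the spot SD was 0.12 for each. Egfl7, a secreted endothelial protein, read 6592 in control and 5789 in knockout lens (-0.17, and -0.25 after loess, spot SD 0.08). Eng, a co-receptor for TGF-beta ligands, read 244 and 219 (-0.15, and -0.11 after loess). Robo4, a receptor that steadies vessels, read 355 and 319.7 (-0.14, and -0.15 after loess). Erg, the ETS factor of endothelium, was not well above background with either of its 2 probes, at 5.25 and 4.8 on the control array.

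Pericyte genes did not share a direction. Pdgfrb, the receptor through which endothelium recruits pericytes, read 91.4 in control and 91.9 in knockout lens (0.02, and 0.27 after loess). Rgs5, a regulator of G protein signalling used as a pericyte marker, read 241 and 248 (0.05, and 0.08 after loess). Both were level between the arrays before the correction. Cspg4, the NG2 proteoglycan of young pericytes, read 77.7 in control and 39.4 in knockout lens, 1.96-fold lower (-0.97, and -0.49 after loess, spot SD 0.24). Cspg4 is thus just inside the 2-fold line, and it crossed that line when the 75th percentile was taken over measured probes (-1.09).

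**Figure D4:**
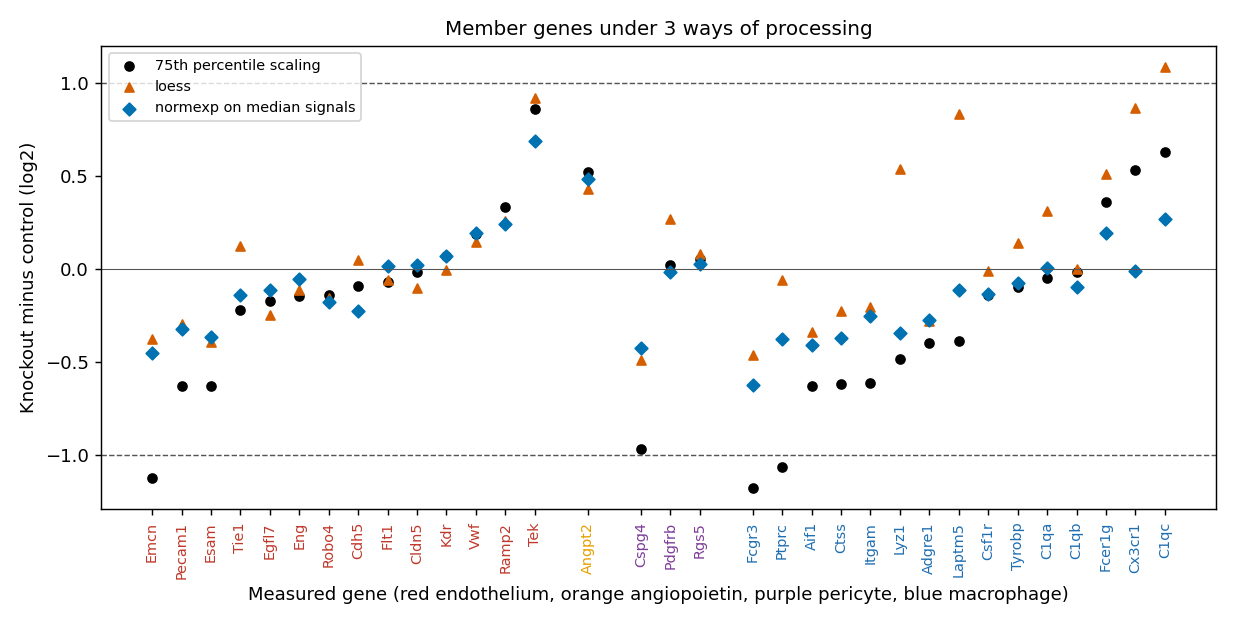
Knockout minus control difference (log2) of each of the 33 measured genes under 75th percentile scaling (black circles), after loess (orange triangles) and after normexp background correction (blue diamonds), with dashed lines at 2-fold. Tek and Angpt2 stay above 0 in all 3 and Emcn, Esam, Cspg4 and Fcgr3 stay below, while Cx3cr1, Lyz1 and Laptm5 lie on different sides of 0.

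The 15 measured macrophage genes were all dim. They lay below the median signal of all genes. Of these, 0 were higher and 2 were lower (13.3%, against 11.3% of all genes below the median signal). Of the 15, 12 lay below 0, beside 66.0% of all genes below the median signal. The macrophage median was -0.39 on the log2 scale. After loess the median was 0.00, with 7 genes below 0, 7 above and C1qb at 0.00. Summed over 25 probes, the signal was 6215 in control and 5775 in knockout lens. Csf1r, Aif1 and the C1q genes were among the 15 of 18 matched genes above background on both arrays. Lyz2 and Mrc1 were above it on 1 array only, and Cd14 on neither. RNA of most listed macrophage genes was thus present in both samples.

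Csf1r, the receptor on which tissue macrophages depend, was measured with 3 probes. The first 2 read 673 and 338 in control and 689.6 and 327 in knockout lens, differences of 0.05 and -0.03. The third probe read 65.8 and 48.3 (-0.43). The mean over the probes was -0.14 with an SD of 0.26 over probes, and -0.01 after loess. The probes with more signal showed level Csf1r.

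The C1q genes encode the 3 chains of the first complement component, which tissue macrophages make, and they lie next to each other with no gene between. C1qb read 262 in control and 257 in knockout lens (-0.02, and 0.00 after loess). C1qa read 71.0 and 68.1 (-0.05, and 0.31 after loess). C1qc, measured in 10 spots, read 37.9 to 56.7 in control and 63.3 to 84.7 in knockout lens, a difference of 0.63 on the log2 scale (1.08 after loess, spot SD 0.24). C1qc ran against the lower readings of most dim probes. The 3 chains thus read unequally under this scaling, with C1qc alone far from 0, and its difference ranged from 0.27 after normexp to 1.41 after quantile normalization, leaving out array median scaling (1.71), which shifted all genes upward.

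The Fc receptor genes also went separate ways. Fcer1g, the signalling chain shared by several Fc receptors, read 113 in control and 144 in knockout lens, 1.28-fold higher (0.36, and 0.51 after loess, spot SD 0.16). Fcgr3, an IgG receptor that signals through that chain, read 58.7 in control and 25.7 in knockout lens, 2.26-fold lower (-1.18, and -0.46 after loess, spot SD 0.24). Fcgr3 has the lowest difference of the 33 genes. Tyrobp, a related signalling adaptor, read 99.5 and 92.2 (-0.10, and 0.14 after loess). Relative to the median of all genes, Fcer1g lay above and Fcgr3 below under each of the 9 settings that measured them, whereas Tyrobp changed sides.

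Markers of macrophage identity and of leukocytes at large fell on both sides of 0. Cx3cr1, the fractalkine receptor of resident macrophages and microglia, read 61.9 in control and 88.7 in knockout lens, 1.45-fold higher (0.53, and 0.86 after loess). The difference of Cx3cr1 was -0.01 after normexp, and its other probe was below background on both arrays. Adgre1, the F4/80 antigen, read 166 and 125 (-0.40, and -0.28 after loess). Aif1, which encodes Iba1, read 102 in control and 65.6 in knockout lens (-0.63, and -0.34 after loess). Adgre1 and Aif1 stayed below the median of all genes under each of the 9 settings that measured them, opposite to Cx3cr1 under this scaling.

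Ptprc, the CD45 phosphatase of all leukocytes, read 40.3 in control and 19.1 in knockout lens, 2.09-fold lower (-1.07, and -0.06 after loess). Little of that difference was left after loess, and quantile normalization turned its sign (0.21). Laptm5, a lysosomal protein of blood cells, read 25.2 and 19.1 with its measured probe (-0.39, and 0.83 after loess). Ctss, a lysosomal protease, read 81.3 in control and 52.6 in knockout lens (-0.62, and -0.23 after loess).

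Itgam, the CD11b integrin chain, had probes whose differences were further below 0 where the signal was lower. Its 3 probes read 3684, 130.2 and 40.1 in control and 3474, 101 and 15 in knockout lens. The differences were -0.07, -0.36 and -1.40, so the mean of -0.61 had an SD of 0.70 over probes and was -0.21 after loess. All 3 lay below 0, and the brightest one was near level.

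Lyz1 and Lyz2 encode the mouse lysozymes and lie side by side. They are close copies, so probes may not separate them fully, and their values are uncertain. Their 150 upstream bases on GRCm38.p6 (Lyz1 chr10:117292869-117293018, Lyz2 chr10:117282273-117282422, both minus strand) are identical at 129 positions (86.0%). They are shown because they make the near identity of the pair visible, and capitals here mark the 21 positions that differ.
Lyz1: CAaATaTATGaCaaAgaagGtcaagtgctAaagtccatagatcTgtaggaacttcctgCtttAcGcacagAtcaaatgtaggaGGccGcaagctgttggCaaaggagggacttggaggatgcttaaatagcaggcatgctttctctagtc
Lyz2: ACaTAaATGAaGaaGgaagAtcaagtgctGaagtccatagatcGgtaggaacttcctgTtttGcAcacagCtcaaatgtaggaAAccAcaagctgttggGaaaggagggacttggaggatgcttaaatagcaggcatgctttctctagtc

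Lyz1 read 32.3 in control and 22.9 in knockout lens (-0.48, and 0.54 after loess). Lyz2 read 42.8 in control and 6.21 in knockout lens, where it was not well above background. It was at least 3.5-fold lower by the bound (1.81 on the log2 scale), and its difference after loess was -1.29. Among genes above background on the control array only, 92.8% of 1809 had a bound of at least 2-fold. The mannose receptor Mrc1, a marker of perivascular macrophages, went the other way. It read 21.7 on the control array, not well above background there, and 33.7 on the knockout array, at least 1.57-fold higher. Among genes above background on the knockout array only, 6.36% of 472 had a bound of at least 2-fold. Cd14, a receptor for bacterial lipopolysaccharide, was not well above background on either array, at 23.9 and 7.83.

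Relative to the median of all genes, 6 of the 33 genes lay above under every setting that measured them (9 or 10): Tek, Ramp2, Vwf, Angpt2, C1qc and Fcer1g. Another 10 lay below under every such setting: Pecam1, Emcn, Esam, Egfl7, Cspg4, Aif1, Adgre1, Ctss, Fcgr3 and Itgam. The other 17 changed sides. Endothelial and macrophage genes are found in each of these groups. The share of all measured genes that keep their side was not counted, so these counts cannot be called particular to the set. Every setting reprocesses the same arrays, and a kept side is not independent support for a direction.

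Genes that act on these vessels were read from further lists. Of 30 VEGF, Notch and endothelial regulator genes 29 were measured, 0 higher and 3 lower (10.3%, against 5.86% of all measured genes). The lower share was 11.3% among all genes below the median signal, where 24 of the 29 lie. Below 0 lay 20: 18 of the 24 dimmer and 2 of the 5 brighter genes. Among all genes, 66.0% of the dim and 32.2% of the bright ones lay below 0. The median of the 29 genes was -0.23 on the log2 scale and 0.10 after loess. Notch1, a receptor that limits sprouting, read 119 and 69.8 in control and 28 and 18.4 in knockout lens with its 2 probes (-1.99, and -1.37 after loess). Aplnr, the apelin receptor of venous and sprouting endothelium, read 66.2 and 18.9 (-1.80, and -1.003 after loess). Notch1 stayed past 2-fold after loess and with quantile normalization (-1.19) and came within it after normexp (-0.83). Aplnr was at the 2-fold line after loess and within it with quantile normalization (-0.79) and normexp (-0.67). Tal1, a factor of blood and endothelial lineage, read 45.2 and 21.2 (-1.07, and -0.17 after loess), and its sign turned under quantile normalization (0.10). Vegfa, the ligand of Kdr and Flt1, was looked up after its values were seen and was level, at 2090.1 and 2095 with its brighter probe.

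Of 12 genes linked to hyaloid regression 11 were measured, 0 higher and 1 lower (9.09%, against 5.86% of all measured genes), with a median of -0.01 (-0.08 after loess). Wnt7b, a Wnt ligand that macrophages present to hyaloid endothelium, read 7384 in control and 4697 in knockout lens (-0.64, and -0.71 after loess, spot SD 0.08). Its signal lies in the brightest class, where the median of all genes was 0.08 and 29.8% of genes lay below 0. Wnt7b stayed within 2-fold, and the share of genes in that class with a difference as low was not counted. Lef1, a nuclear effector of Wnt signals, read 238 and 164 (-0.52, and -0.46 after loess). Wnt7b is not particular to macrophages, and which cells gave this signal was not tested. Cdkn2a, the locus of Arf, which the regression of these vessels requires, read 123 and 60.0 with its measured probe (-1.02, and -0.75 after loess). Opn4, the melanopsin gene, read 86.2 and 61.9 (-0.46, and -0.13 after loess). The Norrin gene Ndp was above background on the knockout array only, at 26.2 and 38.3, at least 1.47-fold higher.

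Among mural and smooth muscle genes 1 stood apart. Of 12 genes 8 were measured, 1 higher and 0 lower, beside 1.02% higher and 5.86% lower of all measured genes. The median of the 8 genes was -0.11 (0.04 after loess). Acta2, smooth muscle actin, read 821 to 967 in its 9 control spots and 3399 to 4235 in its 9 knockout spots (2.09 on the log2 scale, and 2.002 after loess). Acta2 is made by lens epithelial cells under some conditions as well as by mural cells. Higd1b, a pericyte gene, read 403 and 268 (-0.57, and -0.58 after loess). Abcc9, a potassium channel subunit of pericytes, read 69.9 and 46.8 (-0.56, and -0.11 after loess, and 0.12 with quantile normalization). Vtn, vitronectin, read 23.8 and 13.0 (-0.86, but 0.55 after loess), so it has no settled direction. Des, desmin, and Myh11, smooth muscle myosin, were above background on the control array only. Des was at least 5.02-fold lower by the bound (-1.57 after loess) and Myh11 at least 1.99-fold lower (-0.11 after loess). A bound of at least 2-fold was usual for such genes (92.8%). Tagln, another smooth muscle gene, was named after its values were seen and read 376 and 525 (0.50, and 0.46 after loess). The mural list as a whole thus had no shared direction.

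Macrophage growth and lineage factors split evenly. Of 22 genes 15 were measured, 0 higher and 3 lower (20%, against 5.86% of all measured genes). The 3 lie in the dimmest signal class, where 23.9% of all genes were lower. Of the 15 genes, 7 lay above and 8 below 0, with a median of -0.03 and -0.00 after loess. Runx1, a blood lineage factor, read 56.0 in control and 18.2 in knockout lens (-1.61, and -0.73 after loess). Cd74, the invariant chain of MHC class II, read 75.5 and 25.7 (-1.54, and -0.92 after loess). Tmem119, a microglial marker, read 83.0 and 35.3 (-1.22, and -0.73 after loess). Trem2, a lipid receptor of phagocytes that signals through Tyrobp, read 38.8 and 67.8 (0.82, and 1.34 after loess). The 3 lower genes were dim and stayed within 2-fold after the correction, while Trem2 passed it there and was 0.19 after normexp. Csf2, a growth factor of myeloid cells, was above background on the control array only (at least 2.59-fold lower by the bound, and -0.99 after loess). Lyve1 and Cd163, markers of perivascular and vessel-lining macrophages, were above background on the knockout array only (at least 1.42-fold and 1.05-fold higher). Another 4 genes were above background on neither array, among them Spi1, which encodes PU.1 (6.68 and 3.85). Spi1 was named after its values were seen. The ligands of Csf1r, looked up after their values were seen, were not lower: Il34 read 78.7 and 114, and Csf1 read 104 and 120.1 with its brightest probe.

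Markers of blood and of neighbouring tissues also differed between the samples. For scale, 49.1% of all measured genes lay below 0, with 66.0% of the dim and 32.2% of the bright ones. Erythroid genes, a measure of blood in the vessels, lay below 0 in 7 of 7 measured of 11 listed, with a median of -0.30 (-0.36 after loess) and a summed signal of 56731 in control and 46634 in knockout lens. Granulocyte genes lay below 0 in 6 of 7 measured, with a median of -0.30 (0.03 after loess) and sums of 1108 and 932, and Ngp, a neutrophil granule gene, was lower (-1.32, but -0.18 after loess and 0.04 with quantile normalization). Of 8 lymphocyte genes 3 were measured, with a median of 0.03 (-0.06 after loess), and 4 were above background on the control array only. Of all named genes, 1809 were above background on the control array only and 472 on the knockout array only. Pigment epithelium genes lay below 0 in 6 of 6 measured of 7, with a median of -0.39 (-0.39 after loess) and sums of 6104 and 5456. The erythroid and pigment lists leaned to the control array with and without loess, and the granulocyte list did so only without it.

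Retinal and mesenchymal genes leaned to the knockout array, while 49.1% of all measured genes lay below 0. Retinal genes lay above 0 in 7 of 8 measured of 9, with a median of 0.69 (0.64 after loess) and sums of 4779.7 and 6827, and Pou4f2, a ganglion cell factor, read 109.9 and 275 (1.34, and 1.42 after loess). Mesenchyme genes lay above 0 in 4 of 5 measured of 8, with a median of 0.50 (0.59 after loess) and sums of 1113 and 1471. Col3a1 and Col1a1, fibrillar collagens, were higher (1.51 and 1.05, and 1.98 and 1.66 after loess, but 0.70 and 0.46 after normexp), and the proteoglycan genes Dcn and Lum were above background on the knockout array only (at least 7.18-fold and 2.39-fold higher). Retina and mesenchyme have vessels and macrophages of their own. The part that adhering tissue or blood had in the values of the vessel and macrophage genes was not tested.

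**Figure D5:**
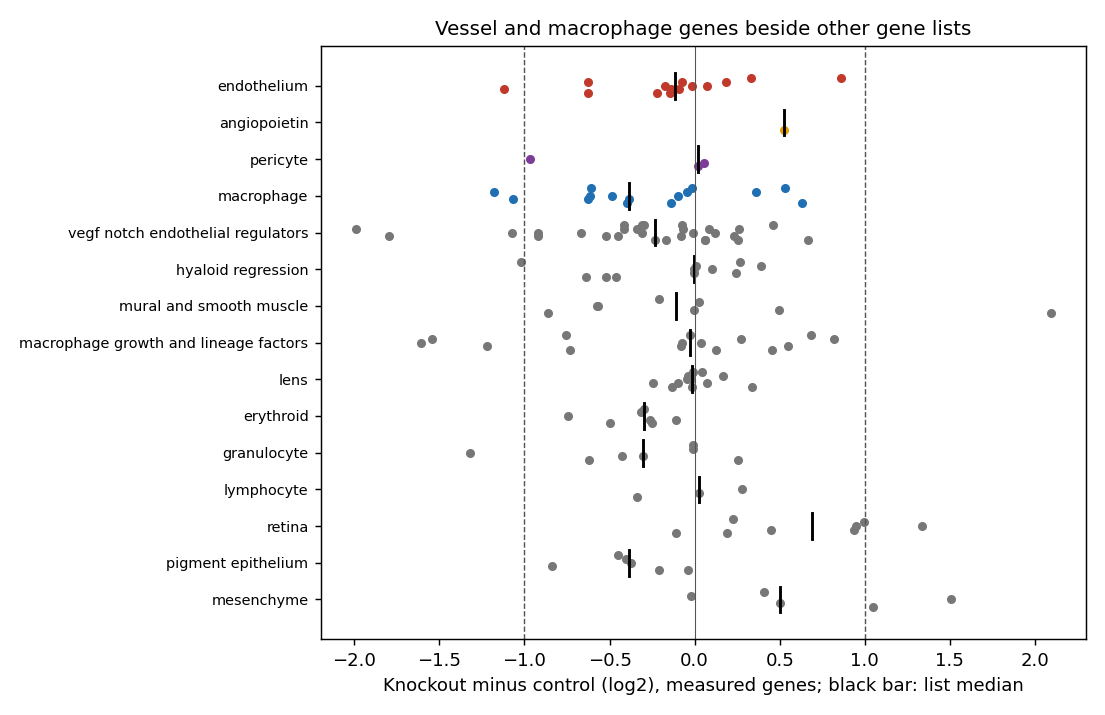
Knockout minus control difference (log2) of each measured gene of the 4 vessel and macrophage lists (coloured) and of 11 further lists (grey), with a black bar at the median of each list and dashed lines at 2-fold. The medians of endothelium (-0.12) and pericyte genes (0.02) lie near 0 and that of macrophage genes at -0.39, while retina (0.69) and mesenchyme (0.50) lie to the right and pigment epithelium (-0.39) and erythroid genes (-0.30) to the left.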

How the data were processed

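Lens RNA labelled with Cy3 was read on 1 Agilent 1-colour array per genotype, both on the same slide; its array positions and the genotypes cannot be told apart. The deposited values are spot intensities on a linear scale, extracted with Agilent Feature Extraction 10.7.3.1 with a layout annotated to mm9, per the file headers. The processed signal is background-subtracted by that software, per the file headers, and no scaling between arrays is recorded there. From these deposited intensities the log2 was taken after control spots and the 263 gene spots with an outlier mark on either array were left out, and the 75th percentile of each array was subtracted (283 for control and 279.9 for knockout). Repeat spots were averaged per probe. Measured probes had more than 50% of their spots well above background on both arrays, and a gene is the mean over its measured probes. A gene above background on 1 array only has a bound: its bright value was set against the dim value or against the least signal that the dim array called above background (20.6 in control, 12.1 in knockout), taking the higher. The bound does not correct for the shift of dim probes, so it is a limit under this scaling only. Probes were named by RefSeq accession through a table of GRCm38.p6. Of 55655 probes, 27225 received a symbol.

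With 1 array per group no test was possible, and a fixed size of 2-fold was used. The 40 genes and the further lists were chosen with earlier results of these data known, and no list is independent support for a direction. All 40 genes are named. Of each further list, the text names up to 4 genes per direction past 2-fold, up to 4 with the largest difference and up to 3 with a bound; a few named outside this rule are said to be. Alternatives changed the scaling, normalization (loess with span 0.3), background correction, filters and choice of probe. The averaging into genes and the 2-fold call were tested on simulated spots with known differences. That simulation held no shift along the signal and did not cover loess or the bounds. Python 3.11.15, pandas 2.3.3, R 4.3.3 and limma 3.58.1 were used. Precision is limited by the number of arrays.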

Additional observations from a re-analysis of the deposited data

How the results depend on the processing

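Array median scaling moved the median of all measured genes from 0.01 to 1.08 on the log2 scale, so its values carry that shift. Under it the median was 0.96 for endothelium, 1.099 for pericyte and 0.69 for macrophage genes, 6 endothelial and 5 macrophage genes were higher and 0 of either list lower. The 75th percentile over measured probes gave an all-gene median of -0.12, and no background filter one of -0.16. The split of all genes at 2-fold was 146 higher and 835 lower as reported, 8724 and 101 with array median scaling, 103 and 1079 with the 75th percentile over measured probes, 776 and 232 with quantile normalization, 405 and 290 with loess, 72 and 99 with normexp, 293 and 4466 without the background filter, and 80 and 46 with brighter probes only. The macrophage median of -0.39 was 0.21 with quantile normalization, 0.00 with loess, -0.14 with normexp, -0.016 over the 3 genes with brighter probes and -0.10 with the brightest probe of each gene. Macrophage genes higher numbered 3 with quantile normalization and 1 with loess. The counts of lower genes, 1 endothelial and 2 macrophage, were both 0 with quantile normalization, loess, normexp and brighter probes only, and 4 macrophage genes were lower without the filter. Ptprc was 0.014 with array median scaling and 0.21 with quantile normalization, Tal1 0.003 and 0.10, Cdkn2a 0.055 with array median scaling and Ngp 0.039 with quantile normalization. Of the list results under an alternative, 40 stayed close to the reported value and 23 moved; the cause was not tested. Normexp was planned on mean signals, which the files used here do not hold, and was run on median signals instead, a choice made after seeing the data. With 1 array per group no array could be left out. No paired analysis was possible because each group has 1 array. Signal over background limits the dim genes most: 27 of the 33 measured genes lie below the median signal.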
